A study of Drosophila melanogaster with 18 samples.

Results

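Autophagy and lysosome genes were followed in heads of the fruit fly Drosophila melanogaster, across adult age in males and in foxo mutant females. The set holds 32 genes, listed by name and placed here by step of the pathway: the initiation complex (4 genes), the lipid kinase complex and membrane supply (8), the Atg8 and Atg12 conjugation systems (10), the cargo receptor ref(2)P, the fusion protein gene Syx17, and the lysosome with its regulator Mitf (8). All 32 were found among the 10884 genes of the male table, and 31 among the 10480 genes of the female table, where no value for Atg8b was used. The study asked which genes depend on foxo, the transcription factor restrained by insulin signaling, and what becomes of them with age. It comprised 18 libraries of polyadenylated RNA from heads, 3 for each of 6 groups. The groups were foxo mutant females (genotype foxoc431/c431) at day 3 after eclosion, wild-type females at day 3, and wild-type males at days 3, 15, 30 and 45. Wild type was the line 5905 (w1118), and no transgene or drug is named for any group. The sources used here do not give the lesion of the foxo allele, the background it was kept in, the number of flies per library, or whether libraries of a group came from separate cultures. The p-values below therefore measure the spread between libraries, part of which may be technical.

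Autophagy wraps cytoplasm in a double membrane and delivers it to lysosomes, where acid hydrolases such as cathepsins break it down. The Atg1 kinase complex starts the process, the Vps34 lipid kinase marks the growing membrane, a ubiquitin-like system couples Atg8 to that membrane, and SNARE proteins fuse the closed vesicle with the lysosome. Receptors such as ref(2)P, the fly homolog of p62, bring ubiquitinated cargo and are degraded with it. In fly heads the pathway is known for clearing protein aggregates from neurons, and FOXO factors are known to activate several of its genes in other tissues of flies and mammals.

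The male libraries held between 2999956 and 4102364 reads over the genes of the table, so 1 read was close to 1 normalized count. The first principal component, with 44.9% of the variance, ordered the male libraries by age. Sex-biased transcripts fitted the labels: the yolk protein gene Yp1 reached at most 10.9 normalized counts in male libraries, while its mean in the authors' deposited table for females was 64184, and the male dosage compensation RNA roX1 stood between 3773 and 7240 in males, with a mean of 31.5 in the authors' deposited table. The foxo transcript was not lower in the mutant: the authors' deposited table gives it a log2 change of 0.33 (SE 0.09, adjusted p = 0.00465). Without the lesion, that level is no check of the mutant labels. The direction of the table's folds was read from its name, and of 500 genes whose log2 change exceeded 0.5 in size, 81.2% lay nearer to the male level on the side read as wild type.

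The members spanned a wide range of transcript level. Per kilobase of exon, Atg8a, the membrane-coupled ubiquitin-like protein, was the highest member in males at day 3, with a mean of 1110 normalized counts per kb (range over 3 libraries, 1038 to 1185). Lamp1, a lysosomal membrane protein gene, followed with 1007 (958 to 1069), and Cp1, the cathepsin L gene, with 993 (986 to 998). The ranges of Atg8a and Lamp1 overlapped, that of Cp1 lay inside that of Lamp1, and cathD, the cathepsin D gene, lay below all of them at 843 (794 to 914). The sterol carrier gene Npc2a had 683, the cathepsin B gene CtsB 516 and ref(2)P 392 normalized counts per kb. The lysosomal transporter genes spin (212) and Npc1a (154) came next. The remaining core Atg genes were lower, from 149 for Atg3, the enzyme that transfers Atg8 to lipid, and 118 for Atg1 to 26.1 for Atg7, the activating enzyme of both conjugation systems. Atg10, the transfer enzyme for Atg12, had 4.45 normalized counts per kb. Of the exon bases of Atg10, Atg4a and Atg12, 46.6%, 51.4% and 13.6% are shared with a gene on the opposite strand, so their levels per kb are uncertain. Atg8b, a second Atg8 gene known from the male germline, had 13 reads in all 12 libraries together and fell under the filter used for tests, so 31 members were tested. At day 45 the order at the top differed: cathD was highest with 1571 normalized counts per kb (1496 to 1613), above Cp1 with 1186 (1091 to 1253) and Atg8a with 1021 (965 to 1102). The range of cathD at day 45 overlapped neither of these, whereas the ranges of Cp1 and Atg8a overlapped.

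**Figure D1:**
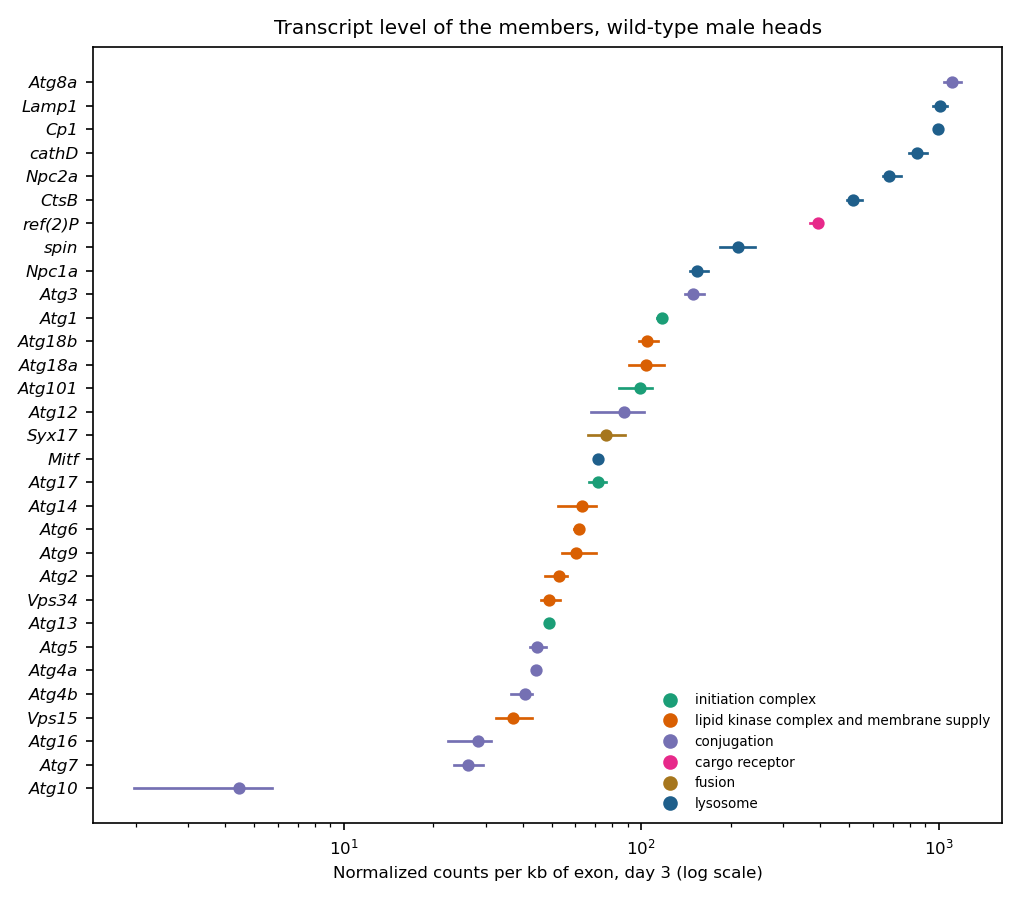
Transcript level of 31 members in wild-type male heads at day 3, in normalized counts per kb of exon on a log axis; points are means of 3 libraries, bars run from the lowest to the highest library, and colors mark the step. Atg8a and the lysosomal genes Lamp1, Cp1, cathD, Npc2a and CtsB take the top of the scale, followed by ref(2)P. Most core Atg genes lie between 26.1 and 149, as does the lysosomal regulator gene Mitf at 71.6, and Atg8b is not drawn because 2 of its libraries were at 0.

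With age in males, the changes of members that passed the test at day 45 were rises. The genes of 3 cathepsins (cathD, CtsB and Cp1), the cargo receptor gene ref(2)P and the initiation gene Atg13 were higher at day 45 than at day 3. The rise of cathD was 1.86-fold and that of ref(2)P 1.42-fold, and that of Atg13, the next, 1.34-fold. Of 31 members tested, 5 rose, beside 17.4% of all 8921 genes tested, and 0 fell, beside 18.3% of all genes tested (limma, log2 of the normalized count plus 1, Benjamini-Hochberg adjusted p under 0.05). The share of members that rose, 16.1%, is near the background. The count of 0 was 1 (Atg18b) at an unadjusted p under 0.05, and edgeR and DESeq2 on the recovered reads also called 0 lower. The median log2 change of the members was -0.03, against 0.004 for all genes tested. Whole heads were measured, so a change in the number of cells of a type and a change in RNA per cell cannot be told apart.

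Some of these members had risen by the first later age. At day 15 against day 3, 3 members rose (CtsB, cathD and ref(2)P), beside 5.95% of all genes tested, and 0 fell, beside 7.42% of all genes (2 at an unadjusted p under 0.05, and 0 by edgeR or DESeq2). At day 30 against day 3, 4 rose (Atg13 in addition), beside 15.0%, and 2 fell (Atg1 and Atg18b), beside 16.5%. Between neighboring later ages few genes of any kind passed. At day 30 against day 15, 1 member rose (Cp1), beside 0.919% of all genes, and 0 fell, beside 0.998% (1 at an unadjusted p under 0.05, 0 by edgeR or DESeq2). At day 45 against day 30, 0 members rose and 0 fell, beside 0.28% and 0.135% of all genes, with cathD alone higher at an unadjusted p under 0.05 and 0 calls by edgeR or DESeq2. The median log2 change of the members was 0.01 at day 15, 0.06 at day 30 and -0.03 at day 45, each against day 3. The F test over the 4 ages called 6 members (Atg13, Atg18b, Cp1, CtsB, cathD and ref(2)P), beside 31.5% of all genes tested.

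In the initiation complex, 1 of 4 genes rose by day 45, beside 17.4% of all genes tested. Atg13, the regulatory partner of the Atg1 kinase (chromosome arm 3R, 8349815 to 8352817 in dm6), had 147, 149 and 146 normalized counts at day 3, 142, 195 and 182 at day 15, 188, 199.5 and 224 at day 30, and 193, 181 and 223 at day 45. The 3 libraries of day 3 nearly coincided and every library of days 30 and 45 lay above them. The mean was 199 ± 21.8 at day 45 against 147 ± 1.51 at day 3 (SD over 3 libraries, as for all means of an age below), a log2 change of 0.43 (SE 0.12, adjusted p = 0.00859). At day 30 it was 0.46 above day 3 (adjusted p = 0.00596).

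Atg1 itself, the kinase that starts autophagy, had 470.2, 495 and 501 normalized counts at day 3, 465, 491 and 475 at day 15, 448, 389 and 415 at day 30, and 452, 482 and 437 at day 45. The libraries of day 30 lay below all libraries of day 3, and those of day 45 overlapped them. The log2 change was -0.23 at day 30 (SE 0.07, adjusted p = 0.0262) and -0.10 at day 45 (adjusted p = 0.333), both against day 3. The day 30 call was lost without day 3 replicate 2, day 3 replicate 3, day 30 replicate 2 or day 30 replicate 3, and with only the compared ages in the fit or with DESeq2. The adjusted p ran from 0.0144 to 0.128 over the libraries left out and from 0.0255 to 0.0762 over the other settings. The scaffold gene Atg17 had 479, 421 and 452 normalized counts at day 3, 438, 513 and 438 at day 15, 436, 481 and 469 at day 30, and 527, 525 and 424 at day 45, with overlap between all ages. Atg17 (log2 change 0.12 at day 45, 95% interval -0.08 to 0.32) and Atg101, which stabilizes Atg13 (-0.10, -0.33 to 0.13), did not pass at any age.

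Of the 8 genes of the lipid kinase complex and membrane supply, 0 passed at day 45, beside 17.4% of all genes higher and 18.3% lower, with 1 at an unadjusted p under 0.05 (limma) and 0 calls by edgeR or DESeq2. Their median log2 change was -0.06. Atg18b, one of 2 genes here for proteins that read the lipid made by Vps34 (2L, 21212322 to 21220572), was the member lowest against its day 3 level. It had 277, 239 and 247 normalized counts at day 3, 213, 239 and 173 at day 15, 207, 189 and 189 at day 30, and 208, 215 and 227 at day 45. All libraries of days 30 and 45 lay below those of day 3. The log2 change was -0.38 at day 30 (SE 0.11, adjusted p = 0.0115) and -0.23 at day 45 (SE 0.11, adjusted p = 0.107). The fall at day 30 was -0.32 with an adjusted p of 0.0581 without day 3 replicate 1, in a range of 0.00515 to 0.0581 over the libraries left out. Its relative Atg18a showed -0.04 at day 45 (95% interval -0.26 to 0.18).

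The kinase gene Vps34 had a log2 change of -0.14 (95% interval -0.37 to 0.08) at day 45 against day 3, and its partners gave -0.12 for Vps15, -0.04 for Atg6, the Beclin homolog, and 0.25 for Atg14 (-0.03 to 0.53). Atg9, the membrane protein carried on vesicles, gave -0.07 (-0.33 to 0.18). The lipid transfer gene Atg2 had 353, 297 and 346 normalized counts at day 3, 305, 332 and 343 at day 15, 332, 365 and 358 at day 30, and 356, 334 and 357 at day 45. Its ages overlapped, and its log2 change at day 45 was 0.08 (-0.10 to 0.25).

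Of the conjugation genes, 0 of 9 tested passed at day 45, beside 17.4% of all genes higher and 18.3% lower. In limma 0 of them had an unadjusted p under 0.05, with 0 calls by edgeR or DESeq2. Their median log2 change was -0.03. Atg8a, whose product is the membrane-coupled protein itself, had 2008, 1876 and 1759 normalized counts at day 3, 1698, 1703 and 1678 at day 15, 1831, 1756 and 1829 at day 30, and 1636, 1689 and 1867 at day 45. Every library of day 15 lay below those of day 3, and those of days 30 and 45 overlapped them. The log2 change at day 45 was -0.12 (95% interval -0.27 to 0.03, adjusted p = 0.208).

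Atg5 and Atg16, whose products form a complex with Atg12 that directs Atg8 to the membrane, had libraries at day 45 that did not overlap those of day 3, yet did not pass. Atg5 had 71.7, 72.1 and 78 normalized counts at day 45, against 59.8, 68 and 61.8 at day 3 (log2 change 0.22, adjusted p = 0.201). Atg16 had 81.6, 85.5 and 85.6 at day 45, against 79.4, 80 and 57.5 at day 3 (0.23, adjusted p = 0.2). Among all members, 7 had day 45 libraries wholly above day 3 and 2 wholly below (Atg18b and Atg4a), beside 22.4% and 22.9% of all genes tested.

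Atg4a, a protease that trims and releases Atg8, had 165, 163 and 155 normalized counts at day 45, against 176, 183 and 182 at day 3 (log2 change -0.16, adjusted p = 0.197). Of its exon bases, 51.4% are shared with CG4629 on the opposite strand, which had a mean of 114 normalized counts. Nothing in the sources says that the libraries recorded strand, so the reads of both genes in the shared bases cannot be told apart. Whether such reads were counted or dropped was not examined. Its relative Atg4b showed -0.03. Atg3 gave -0.03 and Atg7 -0.14, and Atg12 gave 0.03. Atg12 averaged 42.7 normalized counts and shares 13.6% of its exon bases with ND-SGDH on the opposite strand, which averaged 623. Atg10 gave 0.67 (95% interval -0.13 to 1.47), the widest interval of the set, at means of 10.8 normalized counts at day 45 and 6.74 at day 3. It shares 46.6% of its exon bases with the opposite-strand gene Dgk, which averaged 254 normalized counts. Atg8b had 1.79, 2.51 and 1.08 normalized counts at day 45, against 1.22, 0 and 0 at day 3.

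**Figure D2:**
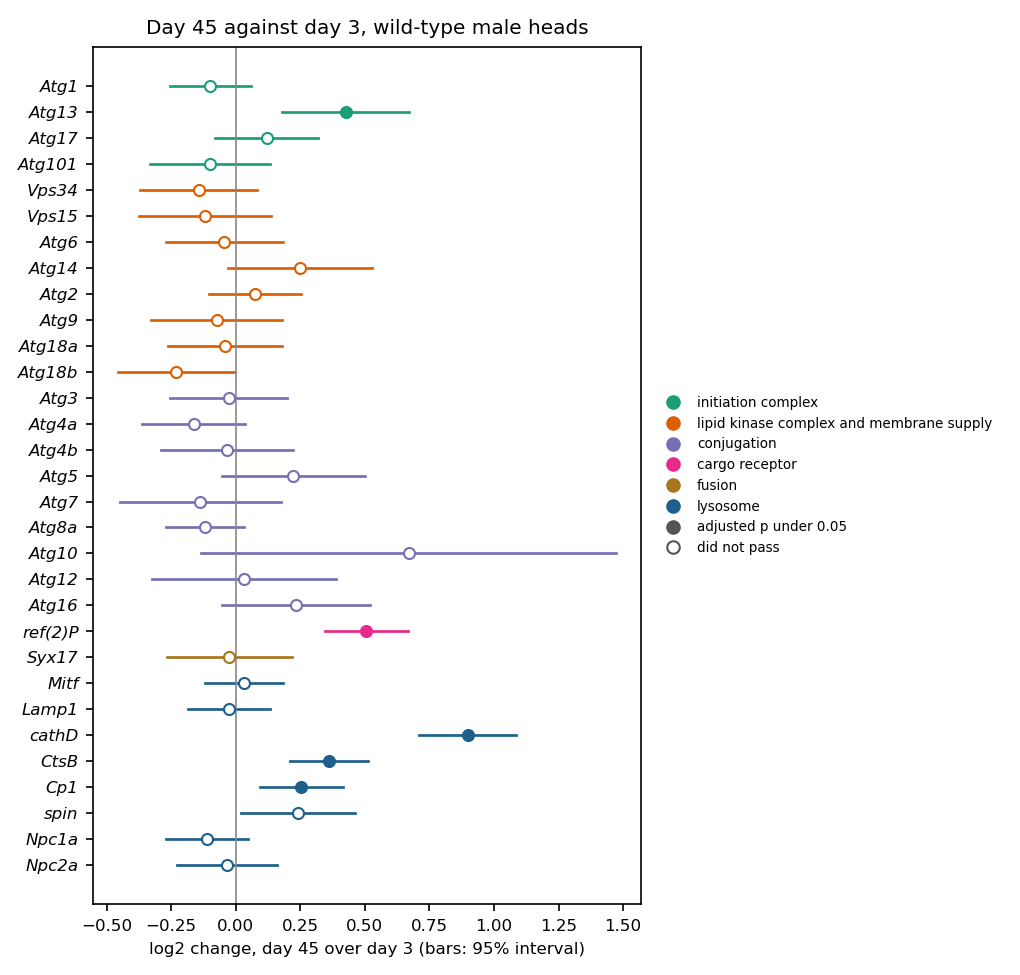
The log2 change at day 45 over day 3 in wild-type male heads for 31 members, in pathway order from initiation (top) to lysosome (bottom); bars are 95% intervals from limma and filled points have an adjusted p under 0.05. The filled points are Atg13 at 0.43, ref(2)P at 0.51, cathD at 0.90, CtsB at 0.36 and Cp1 at 0.25, and the open points include Atg10 at 0.67, whose interval of -0.13 to 1.47 is the widest.

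The cargo receptor gene ref(2)P (2L, 19542468 to 19545548) rose by day 15 and stayed up. It had 884, 968 and 963 normalized counts at day 3, 1206, 1250.4 and 1093 at day 15, 1368, 1343 and 1230.0 at day 30, and 1276, 1302 and 1419.7 at day 45. No library of a later age was as low as any library of day 3. The means were 1333 ± 76.7 at day 45 and 938 ± 46.8 at day 3, a log2 change of 0.51 (SE 0.08, adjusted p = 6.56e-05), after 0.33 at day 15 and 0.48 at day 30. The fusion gene Syx17, a SNARE of the closed autophagosome, showed -0.02 at day 45 (95% interval -0.27 to 0.22).

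At the lysosome, 3 of 8 genes, all of proteases, rose by day 45, beside 17.4% of all genes tested, and the steps were not tested against each other. The largest change of the set belonged to cathD, whose product cleaves proteins at acid pH (2R, 7815339 to 7823569). It had 1417, 1629.8 and 1467 normalized counts at day 3, 2442, 1861 and 2227 at day 15, 2277, 2395 and 2381 at day 30, and 2878, 2863 and 2668 at day 45. All libraries of later ages lay above all libraries of day 3, and all libraries of day 45 above every library of earlier ages. The means were 2803 ± 117 at day 45 and 1505 ± 111 at day 3, a log2 change of 0.90 (SE 0.09, 95% interval 0.71 to 1.09, adjusted p = 9.76e-07), after 0.53 at day 15 and 0.65 at day 30. Its exons share 8.3% of their bases with puml on the opposite strand, which averaged 324 normalized counts, well under the counts of cathD.

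CtsB (X, 13779847 to 13782170) had 800.0, 881 and 786 normalized counts at day 3, 994, 1004 and 907 at day 15, 1066, 1008 and 1065 at day 30, and 1009, 1075 and 1083 at day 45. Its day 3 libraries lay below all others, its day 15 libraries below those of days 30 and 45, and days 30 and 45 overlapped. The mean was 1056 ± 40.4 at day 45 and 823 ± 51.5 at day 3, a log2 change of 0.36 (SE 0.07, adjusted p = 0.000802). At day 15 the change was 0.24 (adjusted p = 0.0372). That earlier call was kept in 7 of 12 fits that left out a library, with adjusted p up to 0.134. It was lost without day 3 replicate 1 or 3, day 15 replicate 1 or 2, or day 45 replicate 2, and with DESeq2 (0.0661) or only the compared ages in the fit (0.0537).

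Cp1 took another course. It had 2062, 2037 and 2056 normalized counts at day 3, 1704, 1806 and 1892 at day 15, 2039, 2345 and 2326 at day 30, and 2507, 2589 and 2254 at day 45. The day 15 libraries were the lowest and the day 45 libraries all lay above day 3. The mean was 2450.0 ± 174 at day 45 and 2052 ± 12.8 at day 3, a log2 change of 0.25 (SE 0.08, adjusted p = 0.0155). Without day 45 replicate 2 the change was 0.21 with an adjusted p of 0.0758, in a range of 0.00517 to 0.0758 over the libraries left out. Day 30 stood 0.31 above day 15 (adjusted p = 0.0469). That call was kept in 3 of 12 fits that left out a library, those without day 3 replicate 1, day 30 replicate 1 or day 45 replicate 3, with adjusted p from 0.0192 to 0.221. The exons of Cp1 (2R, 13960675 to 13967981) share 13.7% of their bases with CG42806 on the same strand, which averaged 58.4 normalized counts.

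**Figure D3:**
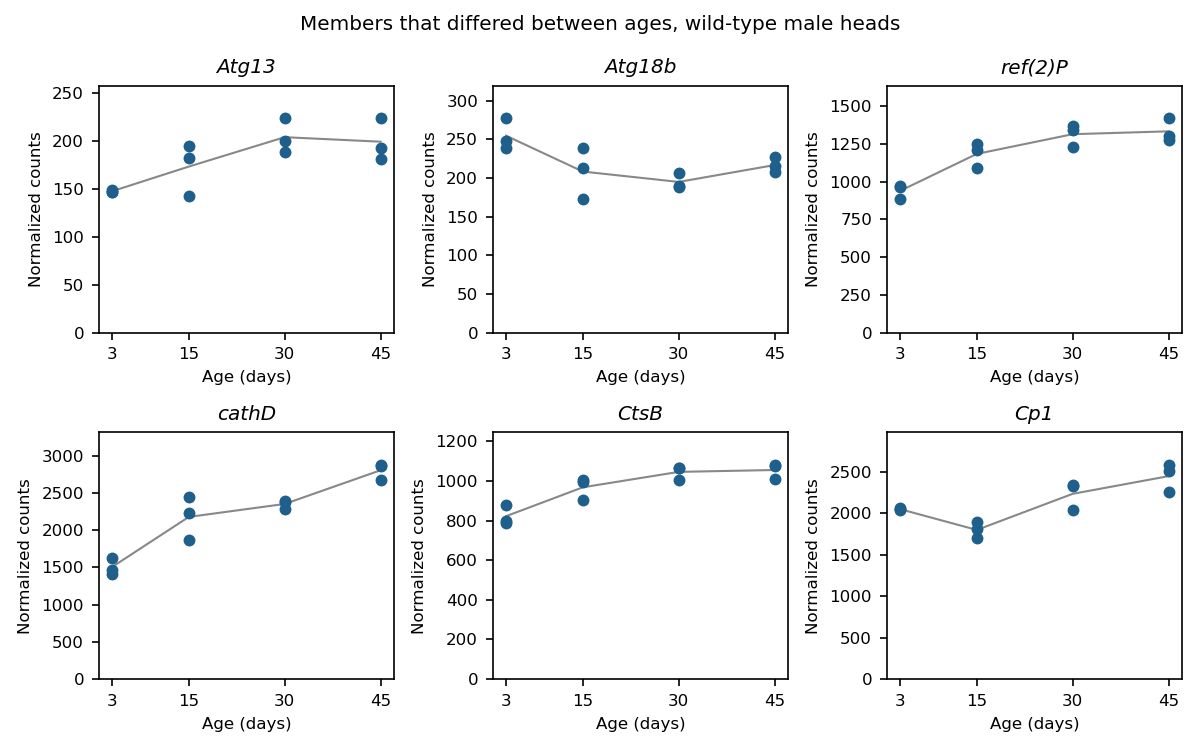
Normalized counts by age in days for the 6 members called by the F test; each point is 1 library of wild-type male heads and lines join the means. The values of cathD, ref(2)P and CtsB are higher at every later age than at day 3, the mean of Cp1 is lowest at day 15, and that of Atg18b at day 30.

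The other 5 lysosomal genes did not pass. The lysosomal efflux transporter gene spin had a log2 change of 0.24 at day 45 (95% interval 0.02 to 0.46, adjusted p = 0.0832) and passed without day 3 replicate 3 (0.34, adjusted p = 0.025) or without day 45 replicate 3 (0.32, adjusted p = 0.03), in a range of 0.025 to 0.333 over the libraries left out. Lamp1 showed -0.03 (-0.18 to 0.13), and the sterol transport genes Npc1a and Npc2a showed -0.11 (-0.27 to 0.05) and -0.03 (-0.23 to 0.16). Mitf, whose product is the fly relative of the lysosomal gene activator TFEB, had 0.03 at day 45 (-0.12 to 0.18) and 0.17 at day 30 (adjusted p = 0.075). Over the set, 26 members did not pass at day 45, with log2 changes from -0.23 to 0.67, and for 23 of them the 95% interval lay within 0.5 of 0. No member reached a log2 change of 1 in either direction.

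Markers of several cell types moved over the same ages. Of 4 neuronal markers, 3 fell by day 45 (nSyb, Syt1 and brp). The sum of all 4 lay between 8660 and 8750 normalized counts at day 45, against 12700 to 15600 at day 3. Of 3 blood cell markers tested, 2 rose (Hml by 0.49 and NimC1 by 0.70 on the log2 scale). The sum of all 4 blood cell markers listed, which include the untested He, was 1640 to 1740 at day 45, against 1170 to 1240 at day 3. Of 4 photoreceptor markers 3 fell, all 3 muscle markers tested fell, 2 of 4 glial markers rose and 1 fell, and 0 of 4 fat body markers passed. The part of these shifts in the values of cathD, ref(2)P, CtsB, Atg13 and Cp1 was not tested.

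In foxo mutant females, 1 member was higher and 4 were lower than in wild-type females at day 3 in the authors' deposited table, beside 6.26% and 6.51% of the 9860 genes with an adjusted p. The gene that changed most was again cathD, here lower in the mutant, followed among the lower genes by Atg1, Atg17 and Atg8a, and Atg2 was higher. The median log2 change of the 31 members was 0.04, against 0.004 over all genes with an adjusted p, in the authors' deposited table. That table gives no value per library, so the spread within its groups cannot be shown here.

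In the authors' deposited table the log2 change of cathD was -0.46 (SE 0.07, adjusted p = 1.87e-09), 1.38-fold lower in mutant than in wild-type heads at a mean of 2654 normalized counts. In the initiation complex the authors' deposited table lists Atg1 at -0.31 (SE 0.10, adjusted p = 0.0232) and Atg17 at -0.26 (SE 0.09, adjusted p = 0.043), 2 of 4 genes of that step, beside 6.51% of all genes lower. The authors' deposited table has Atg13 at 0.01 and Atg101 at 0.13. For Atg8a, with a mean of 2443, the authors' deposited table gives -0.24 (SE 0.07, adjusted p = 0.0147). For Atg2, with a mean of 598, the authors' deposited table gives 0.30 (SE 0.11, adjusted p = 0.0469). A stricter limit of 0.01 on the adjusted p leaves cathD as the only member called from the authors' deposited table.

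The other 26 members ran from -0.27 (Atg6) to 0.30 (Atg4b) in the authors' deposited table, with 4 of them at an unadjusted p under 0.05. Those 4 were Atg4b, Npc1a (-0.17, adjusted p = 0.195), spin (0.20, adjusted p = 0.0872) and ref(2)P (-0.18, adjusted p = 0.115), by the authors' deposited table. The cathepsin genes CtsB and Cp1 had 0.13 and -0.08 in the authors' deposited table, with standard errors of 0.08 each. In the lipid kinase step 1 of 8 genes was higher, beside 6.26% of all genes, and in the conjugation step 1 of 9 was lower, beside 6.51%, in the authors' deposited table. Syx17 had -0.13 in the authors' deposited table. No member reached a log2 change of 1 there, and the standard errors of members ran from 0.07 to 0.22 in the authors' deposited table. The largest standard error of any gene in that table was 0.22, and roX2, at a mean of 2.17 normalized counts, had 0.15. Whether those folds were shrunken is not known, so the folds and errors of low members there should not be compared in size with those in males.

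**Figure D4:**
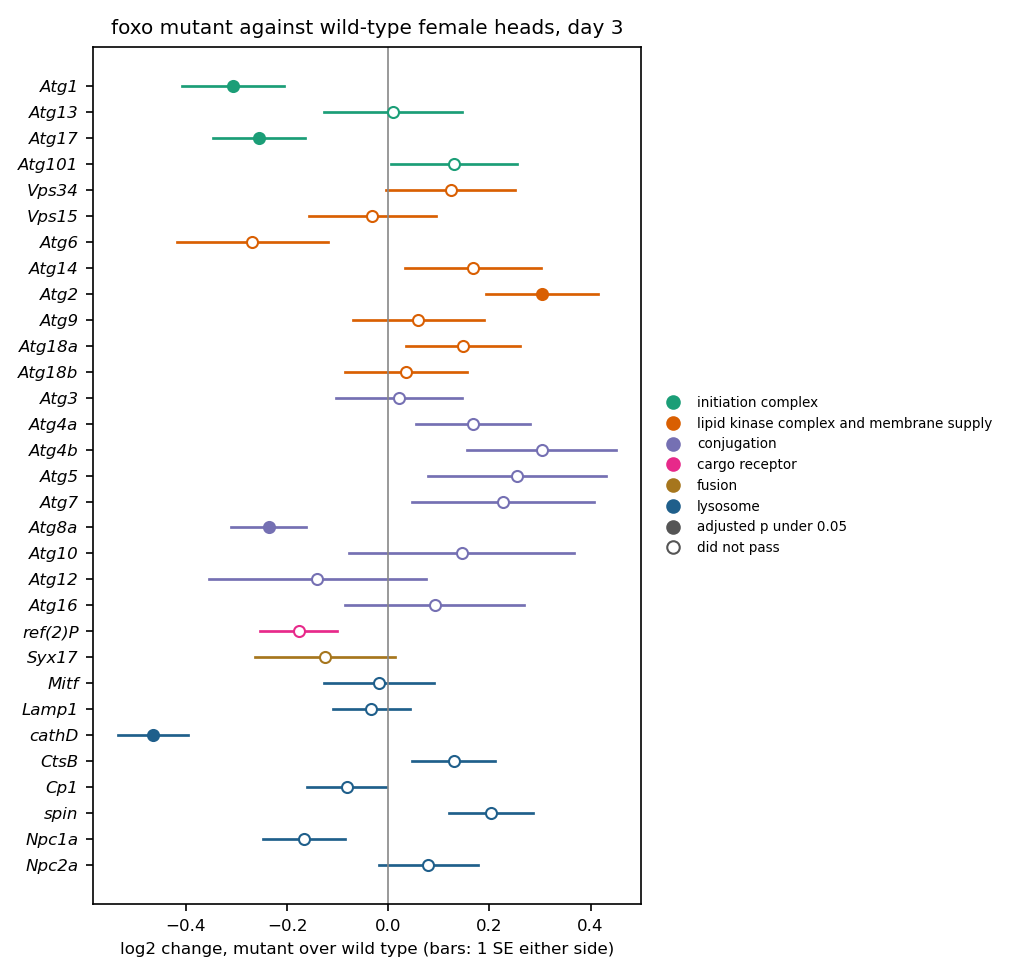
The log2 change of foxo mutant over wild-type female heads at day 3 for 31 members, as in the authors' deposited table; bars are 1 standard error either side and filled points have an adjusted p under 0.05. The filled points are Atg1, Atg17, Atg8a and cathD on the lower side and Atg2 on the higher side, with cathD at -0.46 the farthest from 0.

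Neuronal and blood cell markers differed in that comparison too. All 4 neuronal markers were lower in the mutant, from -0.38 for elav to -0.25 for Syt1, and 2 of 4 blood cell markers were higher (NimC1 at 0.37 and eater at 0.45) in the authors' deposited table. Of 4 fat body markers, 2 were higher (fit at 1.34 and to at 1.02) and apolpp was lower at -0.25 in the authors' deposited table. The 4 glial markers did not pass, and the yolk protein genes Yp1, Yp2 and Yp3 were higher by 0.81, 1.21 and 0.95 in the authors' deposited table. Of 4 photoreceptor markers, only norpA passed, lower at -0.33, and of 4 muscle markers, only Act88F passed, higher at 0.72, in the authors' deposited table. The part of these differences in the member values was not tested.

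The age and mutant comparisons share no library, and 1 member, cathD, passed both at day 45 against day 3 and in the mutant. Of all genes, 17.4% were higher and 18.3% lower at day 45, and 6.26% were higher and 6.51% lower in the mutant. The share of all genes that passed both was not computed, so this count is not a result about the set. The gene cathD was higher at day 45 than at day 3 in wild-type males (0.90). It was lower in mutant than in wild-type females (-0.46 in the authors' deposited table). Atg1 was lower in the mutant (-0.31 in the authors' deposited table). In males Atg1 was lower at day 30 than at day 3 (-0.23), a call lost in 6 of the alternative fits. Its change at day 45 did not pass. Atg17 and Atg2, also called in the mutant, did not pass at any age. For Atg8a the mutant value was -0.24 in the authors' deposited table, and the day 45 value of -0.12 was not past the threshold. For ref(2)P the mutant value was -0.18 in the authors' deposited table, not past the threshold, and the day 45 value 0.51. The age comparison was made in males and the mutant comparison in females, and the difference between them was not tested.

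Genes of the pathway outside the 32 were read from a pair of lists. Of 24 other autophagy genes, 23 were tested with age, and 2 rose and 1 fell at day 45, beside 17.4% and 18.3% of all genes tested. BNIP3, a receptor for mitochondria, had 943, 928 and 909 normalized counts at day 45, against 649, 594 and 769.9 at day 3 (log2 change 0.47, adjusted p = 0.000802). Acn, the gene of Acinus, which promotes autophagy in flies, had 640.0, 598 and 609 at day 45, against 822, 847 and 933 at day 3 (-0.49, adjusted p = 4.31e-05). The day 45 and day 3 libraries of neither gene overlapped.

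The SNARE gene Vamp7, a partner of Syx17 in flies, had 272, 275 and 274 normalized counts at day 45, against 231, 236 and 222 at day 3 (log2 change 0.25, adjusted p = 0.012). DESeq2 gave an adjusted p of 0.0917 for it. In the mutant, 1 of 23 other autophagy genes was lower, beside 6.51% of all genes: the vesicle fusion GTPase gene Rab2 (-0.35, SE 0.08, adjusted p = 0.000537), and 0 were higher, beside 6.26% (2 at an unadjusted p under 0.05), by the authors' deposited table.

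Of 46 other lysosome genes, 31 were tested with age. At day 45 against day 3, 14 rose and 2 fell, beside 17.4% and 18.3% of all genes tested, with a median log2 change of 0.24 against 0.004 for all genes. At day 15 against day 3, 4 rose, beside 5.95% of all genes, and 0 fell, beside 7.42% (limma, with 1 at an unadjusted p under 0.05 and 0 calls by edgeR or DESeq2). At day 30 against day 3, 12 rose, beside 15.0%, and 2 fell, beside 16.5%. The 14 include hydrolases of sugars (beta-Man, LManI and LManII), of sulfated glycans (Ids), of proteins (CtsF), of lipid-modified proteins (Ppt1 and Ppt2) and of DNA (DNaseII), and sterol carriers of the Npc2 family (Npc2b and Npc2g). Without day 3 replicate 1 the count that rose was 8, and without day 45 replicate 2 or replicate 3 it was 9, so its size depends on single libraries.

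Among the largest changes, Cln3, the gene of a lysosomal membrane protein linked to a childhood neurodegeneration in humans, had 39.4, 77.9 and 32.5 normalized counts at day 45, against 94, 105 and 90 at day 3. Its log2 change was -1.03 (SE 0.23, adjusted p = 0.00183), with no overlap between the groups and 1 day 45 library well above the other two. Hexo1, a hexosaminidase gene, had 259, 304 and 389 at day 45, against 563, 543 and 459.8 at day 3 (-0.73, SE 0.12, adjusted p = 0.000122). Its day 45 libraries all lay below those of day 3.

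Ids, the gene of iduronate sulfatase, had 61.9, 47.8 and 54.2 normalized counts at day 45, against 25.6, 37 and 34.7 at day 3 (log2 change 0.74, SE 0.21, adjusted p = 0.00961). Without day 3 replicate 1 its change was 0.59 with an adjusted p of 0.0545. DNaseII, an acid nuclease gene, had 433, 402 and 587 at day 45, against 228, 302 and 355 at day 3 (0.69, SE 0.16, adjusted p = 0.00317). In the mutant, 2 of 33 other lysosome genes were lower, beside 6.51% of all genes: the glucocerebrosidase gene Gba1b (-0.81, SE 0.18, adjusted p = 0.000222) and the thiol reductase gene GILT2 (-0.59, SE 0.15, adjusted p = 0.0017), and 0 were higher, beside 6.26% (3 at an unadjusted p under 0.05), in the authors' deposited table.

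**Figure D5:**
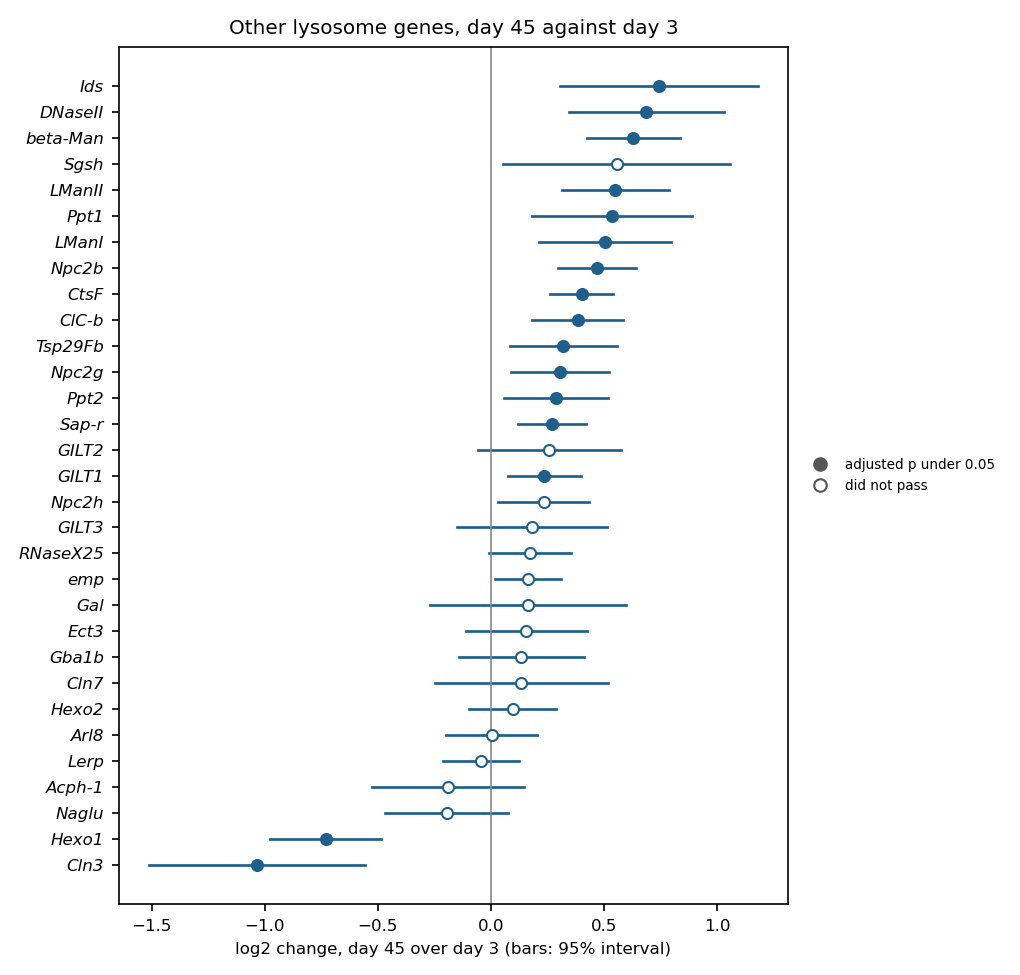
The log2 change at day 45 over day 3 in wild-type male heads for the 31 other lysosome genes tested, sorted by value; bars are 95% intervals from limma and filled points have an adjusted p under 0.05. Filled points stand on the right for 14 genes, led by Ids at 0.74 and DNaseII at 0.69, and on the left for Hexo1 at -0.73 and Cln3 at -1.03.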

How the data were processed

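Heads of 12 male and 6 female libraries were measured by RNA sequencing. The submitters' processing notes name STAR, HTSeq, DESeq and the genome build dm6, without versions. The male values are a signal, deposited as read counts normalized by the authors with DESeq. All male values (100.0%) lay within 0.001 of whole multiples of 1 read, so the reads behind the deposited signal could be counted and given to edgeR and DESeq2 as an alternative. For females, the authors deposited only the result of their comparison: a mean of normalized counts (signal), the log2 change of mutant over wild type, the standard error of that change, a score (their test statistic) and p-values before and after adjustment, which 11 and 620 of its 10480 genes lack. The sources used here do not say whether its folds were shrunken. Its largest standard error was 0.22, and genes with few counts had no wider ones (roX2, mean 2.17, SE 0.15, and can, mean 2.34, SE 0.14). Whether folds drawn toward 0 account for these small errors was not tested. The folds and errors of low genes there should therefore not be compared in size with those of the male fits. No count test could be made on that table.

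Genes were matched to Ensembl annotation of dm6 by FlyBase identifier (10701 of 10884 named), and female names by symbol (8340) or synonym (2015), with 125 unmatched. Of the members, 30 matched by symbol and 2 by synonym. Log2 of the normalized count plus 1 was fitted in limma (trend option on, the 4 ages together) for 8921 genes with at least 10 normalized counts in at least 3 libraries. P-values were adjusted by Benjamini-Hochberg over all of these and called under 0.05. Fold changes are on that log2 scale and understate changes of low genes. The script was tested on simulated data. Alternatives left out each of 12 libraries, added the replicate number, rescaled by TMM, dropped the filter, used pseudocounts of 0.5 or 10, fitted only the ages compared, or tested recovered reads with edgeR and DESeq2.

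The members and the gene and marker lists were chosen with earlier results of these data known. Values per library are given for members called at day 45 or in the mutant and for those that define a step, and from the other lists for up to 4 calls of largest change. Those of Atg18b, called at day 30 and by the F test, are given outside that rule. The values of Atg5, Atg16, Atg4a and Atg8b per library were added after they were seen. Promoter motifs and sequences were not analysed here. Tools were R 4.3.3, limma 3.58.1, edgeR 4.0.16, DESeq2 1.42.0 and Python 3.11.15.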

Additional observations from a re-analysis of the deposited data

How the results depend on the processing

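With each library left out in turn, the members lower at day 15 against day 3 numbered 0 to 1, those lower at day 30 against day 3 numbered 1 to 2, and those higher at day 30 against day 15 numbered 0 to 1. Members higher than at day 3 numbered 2 to 3 at day 15, 4 to 5 at day 30 and 4 to 6 at day 45. The F test over the 4 ages called 4 to 7 members. The other autophagy genes lower at day 45 numbered 1 to 2, and the other lysosome genes higher at day 45 numbered 8 to 14. With only the compared ages in the fit, or with DESeq2, 1 member was lower at day 30 against day 3. With no filter, 0 members were higher at day 30 against day 15. The replicate number as a block also gave 0 there and ended the day 15 call of CtsB (adjusted p = 0.0518), and it changed no other member call. The numbers gave no sign of pairing the libraries: correlations of deviations over 18 pairs of the same number ran from -0.255 to 0.154, and 3 of 12 libraries correlated best with their own number. With 3 libraries per age, these values cannot show whether libraries of the same number were prepared together. With DESeq2, 1 other autophagy gene was higher at day 45. At an adjusted p under 0.01 in the authors' deposited table, 0 members were higher and 1 was lower. The cause of these shifts was not tested. On the recovered reads at day 45 against day 3, edgeR called 1546 genes higher and 1591 lower, and DESeq2 called 1145 and 1338. The rises of cathD, ref(2)P, CtsB and Atg13 at day 45 passed in all 12 fits without a library and all 8 other settings. Uncalled changes near 0 at day 45 turned sign when libraries were left out: Atg2 (-0.0026 to 0.12), Atg9 (-0.14 to 0.042), Atg18a (-0.13 to 0.065), Atg3 (-0.14 to 0.057), Atg4b (-0.11 to 0.0064), Atg12 (-0.14 to 0.15, and -0.000751 with edgeR), Syx17 (-0.12 to 0.086), Lamp1 (-0.077 to 0.018) and Npc2a (-0.11 to 0.048). At this depth the standard errors of members' log2 changes ran from 0.07 to 0.38, so small changes of low genes such as Atg10 were not detectable.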
